A study of Mus musculus with 8 samples.

Results

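Mouse iBMDM, a line of immortalized bone marrow-derived macrophages, were exposed to disulfiram (DSF), and their messenger RNA was sequenced and counted per gene. The comparison described here sets 2 libraries of cells given DSF at 5 μM against 2 libraries of control cells given the vehicle. Per the labels' protocols, all cells were wild type and received DSF or DMSO for 0.5 h, and then LPS at 1 μg/ml or water for 4 h. Both groups of the comparison received water, so that 4 of the 8 libraries of the series belong to it. Libraries treated with LPS alone and with DSF and LPS, 2 of each, entered the same statistical fit and are used below only where the effect of DSF without LPS is set beside its effect with LPS. All genes were considered, and 16304 of the 55414 identifiers in the count table had enough reads to be tested. The cells are 1 immortalized line, and nothing in the labels says that replicates 1 and 2 came from separate cultures. The p-values therefore reflect only how much these libraries differ from each other, which may be technical.

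Disulfiram is a thiol-reactive drug prescribed against alcohol dependence because it inhibits aldehyde dehydrogenase. In cells it is reduced to diethyldithiocarbamate, which binds copper and zinc, and the copper complex is known to make the p97 adaptor NPL4 aggregate. In macrophages the drug is also known to block pore formation by gasdermin D. Misfolded proteins, reactive compounds, metals and blocked protein synthesis are each read by a sensor of their own: heat shock factor HSF1 switches on chaperones, NRF2 (released from KEAP1) switches on antioxidant enzymes, MTF1 responds to zinc, and the eIF2α kinases raise ATF4. SREBP factors, held back when sterols are plentiful, switch on cholesterol and fatty acid synthesis.

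Short stretches upstream of 6 genes whose counts differed are shown because each holds letters read by one of these factors. They come from RefSeq on build GRCm38.p6, run 5′ to 3′ on the strand of the gene, and end before its start. Hspa1b, which encodes an inducible HSP70, is taken from the minus strand at chr17:34959320-34959357, and Hsph1, which encodes HSP110, from the minus strand at chr5:149636347-149636384; capitals mark a heat shock element (GAANNTTC or TTCNNGAA). Srxn1, the sulfiredoxin gene, is on the plus strand at chr2:152105351-152105502, with antioxidant response elements (TGACNNNGC or TGAGNNNGC, either strand) in capitals. Slc7a11, the cystine transporter gene, is on the minus strand at chr3:50443638-50443694, with amino acid response elements (TGATGNAA, either strand) in capitals. Mt2, a metallothionein gene, is on the plus strand at chr8:94172430-94172589, with metal response elements (TGCGCNC or TGCACNC, either strand) in capitals. Hmgcs1, the gene of cytosolic HMG-CoA synthase, is on the plus strand at chr13:119690199-119690237, with a sterol regulatory element (TCACNCCAC) in capitals.
Hspa1b: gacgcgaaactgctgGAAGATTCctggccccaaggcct
Hsph1: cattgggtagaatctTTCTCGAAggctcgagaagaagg
Srxn1: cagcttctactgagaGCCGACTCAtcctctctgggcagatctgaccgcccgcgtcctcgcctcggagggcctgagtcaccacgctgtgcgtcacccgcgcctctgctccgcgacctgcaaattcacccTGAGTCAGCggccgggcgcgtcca
Slc7a11: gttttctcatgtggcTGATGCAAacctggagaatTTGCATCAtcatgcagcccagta
Mt2: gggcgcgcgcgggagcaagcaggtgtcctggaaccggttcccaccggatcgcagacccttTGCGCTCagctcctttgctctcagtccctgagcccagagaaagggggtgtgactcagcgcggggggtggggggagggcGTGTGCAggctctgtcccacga
Hmgcs1: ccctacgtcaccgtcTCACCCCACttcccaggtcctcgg

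These letters are short and common, so the share of windows that hold them is given beside them. In windows of 300 bases, from 250 before to 50 after the start, a heat shock element on either strand was found in 53.8% of 13 windows of the HSP genes listed below and in 12% of the 13250 windows of genes tested. Metal response elements were found in 52.4% of 21 windows of metallothionein and zinc transporter genes and in 34.5% of the windows of genes tested. Antioxidant response elements, whose letters can overlap an AP-1 site, stood in 45.5% of 22 windows of NRF2 target genes and in 31.0% of the windows of genes tested. They stood in 61.1% of the windows of sterol enzyme genes and in 42.9% of those of metallothionein and zinc transporter genes as well, so the match is not particular to NRF2 targets. The sterol regulatory element was found in 1 of 18 windows of sterol enzyme genes, a share of 5.56%, and in 1.11% of the windows of genes tested. The amino acid response element stood in 4.48% of 1362 windows of genes that rose at least 4-fold, and in 2.48% of the windows of genes tested. Its share was 3.69% for genes that fell at least 2-fold and 3.97% for all counted genes, tested or not. For the AP-1 site (TGANTCA), which is bound by FOS and JUN proteins, the same 4 shares were 10.6%, 5.66%, 5.34% and 7.81%. In genes that rose at least 4-fold, the heat shock (11.7%), antioxidant (31.8%) and metal (28.6%) response elements stood near or below their shares in genes tested. A match of letters is a description and not a bound site.

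The DSF libraries held 21694922 and 19372143 counts, and the control libraries 17822041 and 21177025. Tests were made with edgeR's quasi-likelihood test on the counts, with trimmed-mean (TMM) scaling and Benjamini-Hochberg adjustment over all genes tested, and a gene is called at an adjusted p under 0.05. Levels are given as CPM, the counts of a gene scaled by the size of its library, and fold changes are log2 of DSF over control. At this depth and spread (biological coefficient of variation 7.85%) small changes passed: 1296 of the genes that rose and 2071 of those that fell did so by less than 1.5-fold. CPM are shares of a library, so the amount of RNA per cell was not measured. The correlation of log CPM across the 16304 genes was 0.989 between the DSF libraries and 0.992 between the control libraries.

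Most genes tested were called. Of the 16304, 9467 changed: the test called 5049 genes higher in DSF cells, 31.0% of those tested, and 4418 lower, 27.1%. The sizes were unequal, as 2870 genes (17.6%) rose at least 2-fold and 845 (5.18%) fell at least 2-fold. Further out, 1821 genes rose and 110 fell at least 4-fold, and 618 rose and 4 fell at least 32-fold. The median log2 fold change over all genes tested was 0.05, and scaling by library size alone moved it to -0.05. Rises of at least 2-fold were mostly of genes little expressed in control cells: 1821 of the 2870 had a control mean under 1 CPM. Of the 3670 genes tested whose control mean was under 1 CPM, 49.7% rose and 1.12% fell, and many of them passed the filter on low counts only through the groups given DSF. Of the 2272 genes at 100 CPM or more in control cells, where the filter plays no part, 24.6% rose and 50.6% fell. The number of genes with at least 1 count was 24660 and 24298 in the DSF libraries, against 19779 and 20318 in the control libraries.

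**Figure D1:**
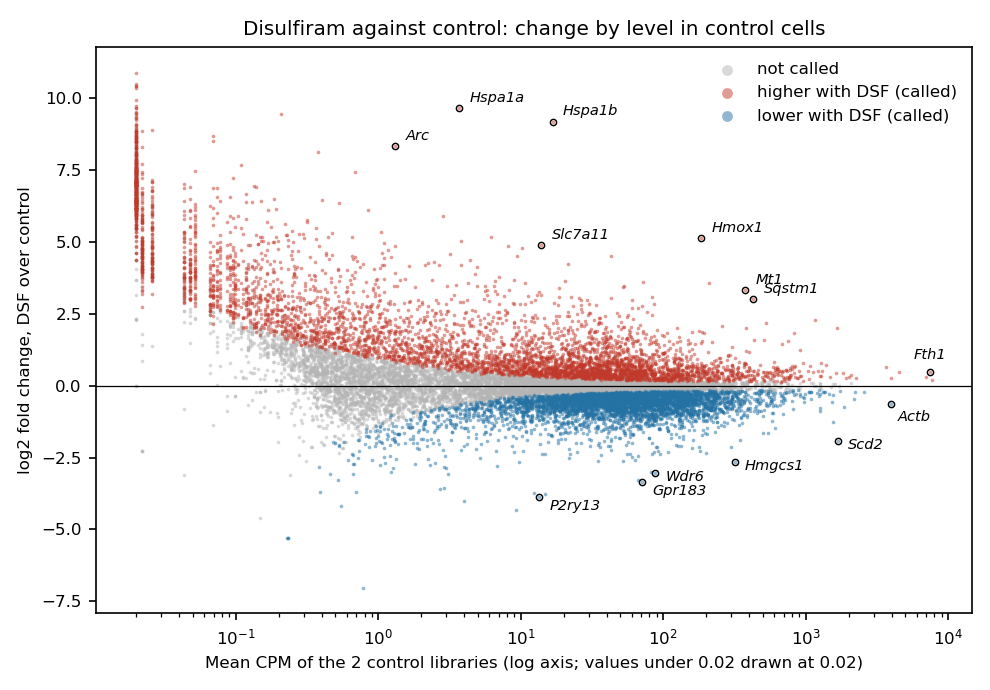
Log2 fold change of DSF over control against the mean CPM of the 2 control libraries (log axis) for the 16304 genes tested, 1 point per gene, coloured by call. Rises of 10 or more in log2 lie at the left edge, among genes with almost no reads in control cells, and the points at 100 CPM or more lie mostly below 0 (50.6% fell, 24.6% rose).

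The DSF libraries were close to each other but not level in every gene. Of the 1821 genes that rose at least 4-fold, 1253 (68.8%) were higher in DSF replicate 2 than in replicate 1, by a median ratio of 1.14 over all 1821. Libraries of DSF and control did not overlap in 80.1% of all genes tested, called or not, so a lack of overlap says little by itself.

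The label of the cells was checked against marker genes. All 12 macrophage markers on the list were tested, among them Cd68, Csf1r, Adgre1, Lyz2 and Spi1, and together they made up 2670 and 2870 CPM in DSF libraries, against 2870 and 2940 CPM in control libraries. Markers of other cell types were near 0. The 6 neutrophil markers summed to 0.272 and 0.568 CPM with DSF and to 0 and 0.131 CPM in control, with S100a8 and S100a9 at 0 in all 4 libraries. The sums were 2.72 and 1.45 CPM with DSF and 0.828 and 2.48 CPM in control for 6 dendritic cell markers, and 1.31 and 2.12 CPM with DSF and 0.362 and 0.174 CPM in control for 6 lymphocyte markers. Fibroblast markers summed to 3.31 and 2.38 CPM with DSF and 0.724 and 1.22 CPM in control, epithelial and endothelial markers to 10.5 and 11.2 CPM with DSF and 8.33 and 8.15 CPM in control. In such bulk samples, fewer cells of a type and less RNA per cell cannot be told apart.

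Among genes reaching 10 CPM, the largest rises were of genes almost silent in control cells. Tex19.1, a germline gene that restrains retrotransposons, stood at 130.0 and 179 CPM in DSF cells, against 0.155 and 0.262 CPM in control cells (log2 fold change 9.46 ± 0.31 (SE), adjusted p = 8.7e-12). Only genes without overlap between groups entered this choice, so the separation of DSF and control libraries in these rises was set in advance. Arc, a neuronal immediate early gene, was at 352 and 508 CPM in DSF cells, against 1.19 and 1.44 CPM in control cells (log2 fold change 8.34 ± 0.32 (SE), adjusted p = 3.9e-11). Plat, which encodes tissue plasminogen activator, was at 26.8 and 37.1 CPM in DSF cells, against 0.0517 and 0.0872 CPM in control cells, a log2 fold change of 8.69. Other genes among the 12 largest rises were Myo18b, a myosin gene (8.85), Hfm1, a meiotic helicase gene (7.66), Atp13a4, an ATPase gene (7.23), and Stmn4, a stathmin gene (6.93); each had at most 5 counts in either control library. Further members of these 12 belong to the heat shock and immediate early groups described below.

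The largest falls among genes reaching 10 CPM were smaller than the largest rises. A gene that fell had to reach this level in control cells, so its detection there was set by the choice. Over all genes tested, 4 fell at least 32-fold, further than any fall named here. P2ry13, an ADP receptor gene of myeloid cells, had 1.13 and 0.671 CPM in DSF cells, against 11.8 and 15.2 CPM in control cells (log2 fold change -3.88 ± 0.26 (SE), adjusted p = 1.3e-08). Gpr183, the receptor gene for oxysterols that guide immune cells, had 7.88 and 5.68 CPM in DSF cells, against 71.5 and 69.1 CPM in control cells (log2 fold change -3.37 ± 0.14 (SE), adjusted p = 7.9e-11). Wdr6, which encodes a WD-repeat partner of a tRNA methyltransferase, had 10.2 and 11.2 CPM in DSF cells, against 86.5 and 88.8 CPM in control cells (log2 fold change -3.04 ± 0.11 (SE), adjusted p = 2.9e-11). Genes that overlapped between groups were left out of this choice, so the lack of overlap in these 3 genes was set in advance. Rin2, a Rab5 exchange factor gene, fell by 3.26 in log2 terms, that is to 7.61 and 6.20 CPM with DSF and 63.2 and 69.8 CPM in control. Sesn1 (-2.62), Rab3il1 (-2.60), Slfn2 (-2.60) and Inka1 (-2.51) completed the named falls together with Maf and Hmgcs1 (below), Ighm (-3.75) and Nxpe1-ps (-3.76).

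By gain in CPM, which weights abundant transcripts and is not corrected for length, chaperone, metal and ferritin genes were among the leaders. Hspa1b had 8593 and 11043 CPM in DSF cells, against 14.1 and 19.3 CPM in control cells. Hmox1, which encodes the heme-degrading enzyme heme oxygenase, had 6762 and 6183 CPM in DSF cells, against 188 and 181 CPM in control cells. The 10 genes with the most counts made up 7.23% and 7.50% of the DSF libraries, against 4.95% and 4.85% of the control libraries. Gm15459, an annotated pseudogene whose 1941 bases match Hspa8 at 99.7% identity, was counted at 6444 and 6951 CPM with DSF and 1651 and 1639 CPM in control; its reads cannot be told from those of Hspa8. The largest losses in CPM were of Actb (-0.63), the lipid enzyme genes Scd2 and Fasn, Tubb5, Tuba1b, Gpnmb (-0.47), Eif4g1, Eif4g2, the semaphorin receptor gene Plxnb2 (-1.45) and the nucleolin gene Ncl (-0.23). Actb, often taken as a constant gene, had 2333 and 2798 CPM in DSF cells, against 3780.4 and 4166 CPM in control cells (log2 fold change -0.63 ± 0.08 (SE), adjusted p = 5.6e-06).

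**Figure D2:**
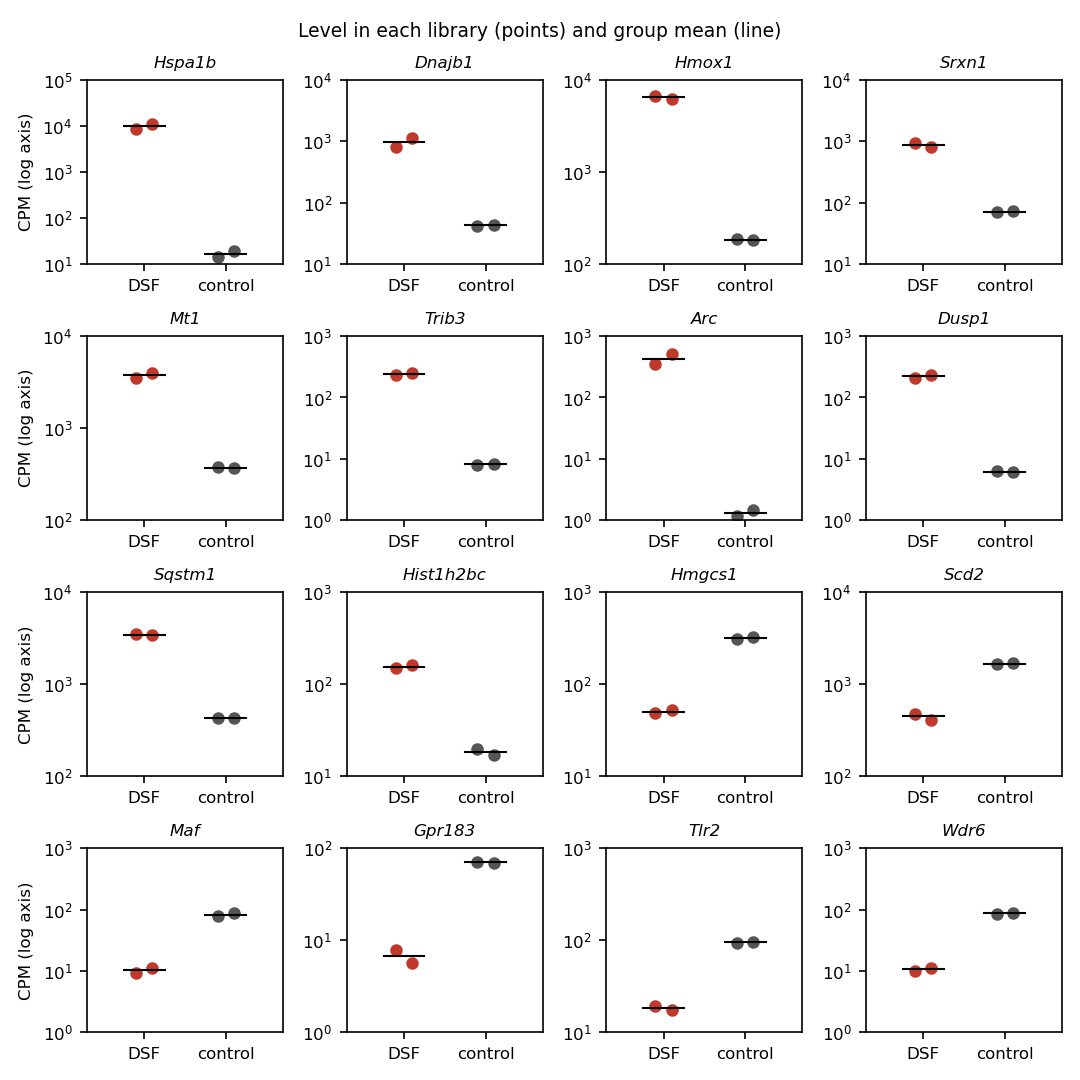
Level in each library (CPM, log axis) of 16 genes named in the text, with DSF on the left and control on the right of each panel; points are the 2 libraries and the line is their mean. In every panel the groups are further apart than the 2 libraries of a group, as for Hmgcs1 at 48.9 and 52.2 CPM with DSF and 309.8 and 324 CPM in control. The 16 were picked among called genes, so this gap is set in part by the choice. The groups did not overlap in 80.1% of all genes tested.

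Chaperone genes rose, most of all the inducible ones. Of 14 tested genes for HSP70, HSP110, HSP90 and small heat shock proteins, 11 rose and 0 fell, with a median log2 fold change of 1.92, against 31.0% rising and a median of 0.05 over all genes tested. Lists whose shares lie near the 31.0% rising and 27.1% falling over all genes, such as NADPH enzymes, aldehyde dehydrogenases and mRNA decay factors, are described below for their single genes. Hspa1b and Hspa1a, near-identical neighbours whose reads may be split between them, rose by 9.19 and 9.67; Hspa1a was at 2687 and 3343 CPM in DSF cells, against 3.26 and 4.10 CPM in control cells. The constitutive partner Hspa8 had 2729 and 3128 CPM in DSF cells, against 793 and 850.3 CPM in control cells (log2 fold change 1.83 ± 0.07 (SE), adjusted p = 4.4e-11). Hsph1, which recharges HSP70, had 2389.8 and 2586 CPM in DSF cells, against 209.9 and 209 CPM in control cells (log2 fold change 3.57 ± 0.07 (SE), adjusted p = 5.4e-14). Of the cytosolic HSP90 genes, the inducible Hsp90aa1 was at 2232 and 2146 CPM in DSF cells, against 769 and 738 CPM in control cells (1.54 in log2 terms), and Hsp90ab1 rose by 0.64. Hspa4 was not called (492 and 504 CPM with DSF and 479.9 and 488 CPM in control).

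The helpers of these chaperones changed in both directions. Dnajb1, the J-domain partner of HSP70 that HSF1 induces, had 804 and 1148 CPM in DSF cells, against 42 and 43.3 CPM in control cells (log2 fold change 4.52 ± 0.20 (SE), adjusted p = 1.8e-10), and 8 of 17 J-domain genes rose while 6 fell. Dnajb2 (1.76), Dnajb4 (1.71) and Dnaja1 (1.62) rose more than 2-fold, whereas Dnajb14 (-0.87) and the mitochondrial Dnaja3 (-0.57) fell. Of 22 heat shock factor and co-chaperone genes, 8 rose and 4 fell (6 and 6 when scaled by library size alone). Those that rose most were Chordc1 (2.11), Ahsa2 (1.89) and Bag3 (1.56), an HSP70 nucleotide exchange factor at 171 and 198 CPM with DSF and 60.8 and 64.6 CPM in control. Hsf1, the gene of the main heat shock factor, fell slightly (49 and 46.8 CPM with DSF and 61.3 and 60.6 CPM in control; -0.35 in log2 terms). The cytosolic chaperonin and prefoldin genes moved little, with 3 of 14 rising and 1 falling, a balance that turned to 1 rising and 5 falling when scaled by library size alone, and with 1 rising whichever of the 4 libraries was left out. In mitochondria, the protease gene Lonp1 (0.98) and the chaperonin genes Hspd1 (0.53) and Hspe1 (0.77) rose, and the protease genes Clpx (-0.53) and Yme1l1 (-0.50) fell, in a list of 13 with 4 calls each way (4 rising and 7 falling when scaled by library size alone, and 2 falling without control replicate 1).

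Genes of the ubiquitin and p97 list rose more often than they fell, and proteasome subunit genes rose and fell in equal number. Ubb, a ubiquitin precursor gene, had 2109 and 2690.3 CPM with DSF and 540.4 and 514 CPM in control (2.19 in log2 terms). Zfand2a, whose product AIRAP joins the proteasome when proteins misfold, had 522 and 635 CPM in DSF cells, against 54 and 51.6 CPM in control cells (log2 fold change 3.45 ± 0.10 (SE), adjusted p = 2.5e-12). Its relative Zfand5 (1.60) and the p97 anchor gene Ubxn4 (1.51) rose as well, and 12 of 23 genes of this list rose and 3 fell. The genes for p97 and NPL4 themselves, Vcp and Nploc4, were not called, at 91.5 and 106 CPM with DSF and 98.9 and 102 CPM in control, and 156 and 155 CPM with DSF and 144 and 147 CPM in control. Of 33 proteasome subunit genes, 6 rose, 6 fell and none changed 2-fold (median 0.02); scaled by library size alone, 5 rose and 11 fell (median -0.08). The largest changes were of Psmd8 (0.60) and Psmd11 (0.54), both lid subunits, and of the core subunit Psma4 (-0.37). Nfe2l1, which encodes the factor NRF1 that drives proteasome genes, fell by 0.44.

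Genes of the NRF2 system rose broadly. Of 22 tested targets, 19 rose and 0 fell, with a median of 1.33. Slc7a11, whose product imports cystine for glutathione synthesis, had 439.6 and 382 CPM in DSF cells, against 14.5 and 13.3 CPM in control cells (log2 fold change 4.89 ± 0.12 (SE), adjusted p = 8.6e-13). Srxn1, which repairs oxidized peroxiredoxins, had 940.2 and 795 CPM in DSF cells, against 69.3 and 73.8 CPM in control cells (log2 fold change 3.60 ± 0.15 (SE), adjusted p = 7.7e-11). Gclm and Gclc, the subunits of the enzyme that limits glutathione synthesis, rose by 2.97 and 1.13. Txnrd1, thioredoxin reductase, was at 1371 and 1243 CPM with DSF and 431 and 431 CPM in control (1.60), the quinone reductase gene Nqo1 at 15.9 and 13.3 CPM with DSF and 2.48 and 2.53 CPM in control (2.54), and Gstm1, a glutathione transferase gene, at 255 and 254 CPM with DSF and 70.7 and 72.7 CPM in control (1.83). Regulators moved both ways. The small MAF genes Maff (3.69), Mafk (2.46) and Mafg (1.30) and the repressor gene Bach1 (1.99) rose, and Keap1, the NRF2 sensor, fell (79 and 62.7 CPM with DSF and 116 and 117 CPM in control; -0.72). Nfe2l2, the NRF2 gene itself, fell by 0.21, a call lost without control replicate 2 (-0.17, adjusted p = 0.14). Among 9 NADPH enzyme genes, 3 rose, led by Me1 (0.86), and 3 fell, led by Rpia (-1.31); by library size alone 3 rose and 5 fell.

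Heme, iron and metal genes changed in both directions. Hmox1 rose by 5.13 ± 0.10 (SE) in log2 terms (adjusted p = 7.7e-14), and Blvrb, which reduces biliverdin, by 2.23. Slc40a1, the iron exporter ferroportin, had 125 and 97.7 CPM in DSF cells, against 26.4 and 26.5 CPM in control cells, and the heme transporter gene Slc48a1 had 289.9 and 242 CPM with DSF and 71.2 and 71.9 CPM in control (2.08 and 1.90). The ferritin genes Fth1 and Ftl1 rose less, by 0.49 and 0.78; both have many pseudogenes that could share reads. Genes for iron regulatory proteins, Aco1 (-0.80) and Ireb2 (-1.01), and the ferritin receptor gene Ncoa4 (-1.08) fell. In all, 9 of 20 rose and 7 fell, or 8 and 8 when scaled by library size alone.

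Metallothionein genes rose, while genes of zinc transport were divided. Mt1 had 3521 and 3989.5 CPM in DSF cells, against 379 and 367 CPM in control cells (log2 fold change 3.33 ± 0.07 (SE), adjusted p = 1.3e-13), and Mt2 had 31.6 and 28.4 CPM in DSF cells, against 2.95 and 1.79 CPM in control cells (log2 fold change 3.68 ± 0.19 (SE), adjusted p = 8.9e-10). Slc30a1, the zinc exporter of the plasma membrane, had 195 and 175 CPM in DSF cells, against 35 and 37.3 CPM in control cells (log2 fold change 2.36 ± 0.11 (SE), adjusted p = 2.8e-10). Of the other 5 tested genes of its family, Slc30a5 (-1.10) and Slc30a7 (-0.47) fell, Slc30a4 fell near the threshold (-0.24, adjusted p = 0.041), and the rest were not called. The call of Slc30a4 was lost in 7 of the 11 alternative fits, those without control replicate 1 (-0.26, adjusted p = 0.097), control replicate 2 (-0.23, adjusted p = 0.14) or DSF replicate 2 (-0.20, adjusted p = 0.19) among them. Of 10 zinc importer genes, 5 fell and 5 were not called: Slc39a10 was at 19.3 and 18.9 CPM with DSF and 60.1 and 62.7 CPM in control (-1.68), and Slc39a13 (-0.91), Slc39a1 (-0.83), Slc39a6 (-0.65) and Slc39a9 (-0.39) fell. Over the list, 5 of 20 rose and 8 fell, and Mtf1, the zinc sensor gene, rose by 0.70. The copper list of 15 genes gave 4 rises and 6 falls (3 and 8 when scaled by library size alone). Atp7a, the copper exporter, had 47.1 and 50.4 CPM in DSF cells, against 21.6 and 23.1 CPM in control cells (log2 fold change 1.12 ± 0.10 (SE), adjusted p = 2.4e-07), Sod1, copper-zinc superoxide dismutase, rose by 0.71, and the copper chaperone gene Atox1 by 0.43. The importer gene Slc31a1 was not called (61.5 and 60.5 CPM with DSF and 67.7 and 70.5 CPM in control), but fell when scaled by library size alone (-0.28, adjusted p = 0.0059). The cytochrome oxidase assembly gene Cox11 (-1.23) and the lipoylated dehydrogenase gene Dbt (-1.60) fell. Of 13 aldehyde dehydrogenase genes, the class of enzymes DSF inhibits, 5 rose and 4 fell (3 and 5 when scaled by library size alone, 3 rising without control replicate 2 or without DSF replicate 1, and 2 falling without DSF replicate 2), and the mitochondrial folate enzyme gene Aldh1l2 was at 86.1 and 75.2 CPM with DSF and 28.2 and 30.0 CPM in control (1.47).

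Targets of the integrated stress response rose, but most genes of the endoplasmic reticulum did not. Of 17 tested targets of ATF4 and CHOP, 16 rose and 0 fell (median 1.26). Trib3, a pseudokinase that restrains ATF4, had 234 and 246 CPM in DSF cells, against 8.07 and 8.24 CPM in control cells (log2 fold change 4.88 ± 0.09 (SE), adjusted p = 5.4e-14). Chac1, which degrades glutathione, had 61.7 and 88.6 CPM in DSF cells, against 4.14 and 2.22 CPM in control cells (log2 fold change 4.59 ± 0.29 (SE), adjusted p = 6.5e-09). Ppp1r15a, which encodes the phosphatase subunit GADD34 that reverses eIF2α phosphorylation, had 354 and 452 CPM in DSF cells, against 23.5 and 19.5 CPM in control cells (log2 fold change 4.23 ± 0.12 (SE), adjusted p = 3.1e-12). All 3 were far above both control libraries in both DSF libraries. Among regulators, Ddit3 (CHOP) rose by 3.33, Atf3 by 2.85, Atf5 by 2.04, Cebpb by 1.56 and Atf4 by 0.97. Of the 4 eIF2α kinase genes, Eif2ak3 rose (1.22) while Eif2ak4 (-0.67), Eif2ak1 (-0.69) and Eif2ak2 (-1.51) fell.

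Amino acid supply genes followed in part. Of 19 aminoacyl-tRNA synthetase genes, 12 rose and 5 fell, with Sars (1.55), Aars (1.51) and Cars (1.44) at one end and Farsa (-0.62) and Vars (-0.51) at the other. Of 19 amino acid transporter genes, 11 rose and 5 fell. Slc6a9, a glycine transporter gene, had 81.4 and 70.9 CPM with DSF and 9.78 and 11.6 CPM in control (2.83), and Slc1a4, a neutral amino acid transporter gene, had 159 and 163 CPM with DSF and 23.1 and 23.7 CPM in control (2.78).

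Of 25 endoplasmic reticulum folding and degradation genes, 6 rose and 14 fell (median -0.26). Dnajb9 (2.46), Herpud1 (1.07) and the sensor gene Ern1 (IRE1; 1.69) rose. The folding genes Hyou1, at 138 and 140.3 CPM with DSF and 304 and 326 CPM in control (-1.18), Pdia4 (-0.95), Manf (-0.61), Hsp90b1 (-0.59) and Calr (-0.42) fell, as did Xbp1, the factor gene that drives them (-0.89). Hspa5, which encodes the main HSP70 of this compartment, was not called, at 754 and 876 CPM with DSF and 892 and 892 CPM in control, but fell when scaled by library size alone (-0.23, adjusted p = 0.026), with no filter (-0.17, adjusted p = 0.017) and without DSF replicate 2 (-0.27, adjusted p = 0.034).

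Immediate early genes, which answer growth factor and stress signals without new protein synthesis, rose almost without exception. Of 19 tested, 18 rose and 0 fell (median 3.10). Egr1 had 95.6 and 121 CPM in DSF cells, against 0.362 and 0.392 CPM in control cells (log2 fold change 8.13 ± 0.29 (SE), adjusted p = 1.6e-11), and Fosb had 93 and 145 CPM in DSF cells, against 0.673 and 0.697 CPM in control cells (log2 fold change 7.43 ± 0.47 (SE), adjusted p = 6.9e-09). Both are transcription factor genes, and in both of them the lower DSF library lay far above the higher control library. Jun had 639 and 798 CPM with DSF and 88 and 79.4 CPM in control (3.10), Ier2 304 and 412 CPM with DSF and 43.3 and 42.3 CPM in control (3.06) and Fosl1 66.9 and 75.5 CPM with DSF and 6.41 and 6.54 CPM in control (3.46). Phosphatases and Sprouty proteins, which damp MAP kinase signalling, went with them: 11 of 15 of their genes rose, all at least 2-fold, and 2 fell. Dusp1 had 205 and 237 CPM in DSF cells, against 6.36 and 6.02 CPM in control cells (log2 fold change 5.16 ± 0.14 (SE), adjusted p = 1.5e-12), Dusp8 rose by 6.36 and Dusp5 by 4.53, while Spred1 (-0.54) and Dusp7 (-0.79) fell. Of 10 Kruppel-like factor genes, 7 rose, led by Klf4 (2.59), Klf9 (2.28) and Klf11 (2.20), and 2 fell, Klf13 (-0.87) and Klf16 (-1.28). Zfp36, whose product tristetraprolin marks short-lived mRNAs for decay, had 136 and 181 CPM with DSF and 33.6 and 37 CPM in control (2.17) in a list of 17 decay factor genes with 6 rising and 6 falling.

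Growth arrest and DNA damage genes split. Gadd45g had 144 and 196 CPM in DSF cells, against 2.90 and 2.83 CPM in control cells (log2 fold change 5.89 ± 0.28 (SE), adjusted p = 2.9e-10), and Gadd45a had 29.1 and 34.6 CPM in DSF cells, against 0.776 and 1.57 CPM in control cells (log2 fold change 4.72 ± 0.24 (SE), adjusted p = 7.3e-10); both encode small stress proteins that bind cell cycle and MAP kinase regulators. Btg2 (3.17), Plk2 (2.56), Plk3 (2.90) and Mdm2 (1.71) rose. Other genes known as p53 targets fell: Phlda3 (-1.89), Ccng1 (-1.24), Zmat3 (-1.23) and Sesn1, which was at 5.21 and 6.20 CPM with DSF and 36.9 and 33 CPM in control. Of the 17 genes, 12 rose and 4 fell. In the BCL2 family, the death activator gene Bcl2l11 (BIM) rose by 2.44, to 254 and 276 CPM with DSF and 47.2 and 50.6 CPM in control, and Bid (-1.55) and Bak1 (-0.91) fell.

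Autophagy genes rose, with the cargo receptors in front. Sqstm1, which encodes p62, had 3475 and 3454 CPM in DSF cells, against 428 and 425 CPM in control cells (log2 fold change 3.02 ± 0.09 (SE), adjusted p = 4.2e-12). Optn (3.44), Nbr1 (1.88) and Tax1bp1 (1.24), further receptor genes, rose too, as did Gabarapl1 (2.06) and Map1lc3b (1.39), which encode the proteins the receptors bind. Of 27 genes, 17 rose and 2 fell (15 and 4 when scaled by library size alone, and 4 falling without DSF replicate 2); those that fell were the protease genes Atg4a (-0.90) and Atg4b (-0.49). Of 30 lysosomal hydrolase, pump and membrane genes, 17 rose and 4 fell, mostly by less than 2-fold; the proton pump genes Atp6v1d (1.31) and Atp6v1h (1.14) and the galactosidase gene Gla (2.18) rose more than 2-fold. With its regulators this list had 18 rises and 6 falls among 34 genes, or 14 and 11 when scaled by library size alone. Tfeb, the gene of a factor that drives this programme, had 7.88 and 8.73 CPM with DSF and 25 and 24.9 CPM in control (-1.59), and Mitf fell by 0.40.

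**Figure D3:**
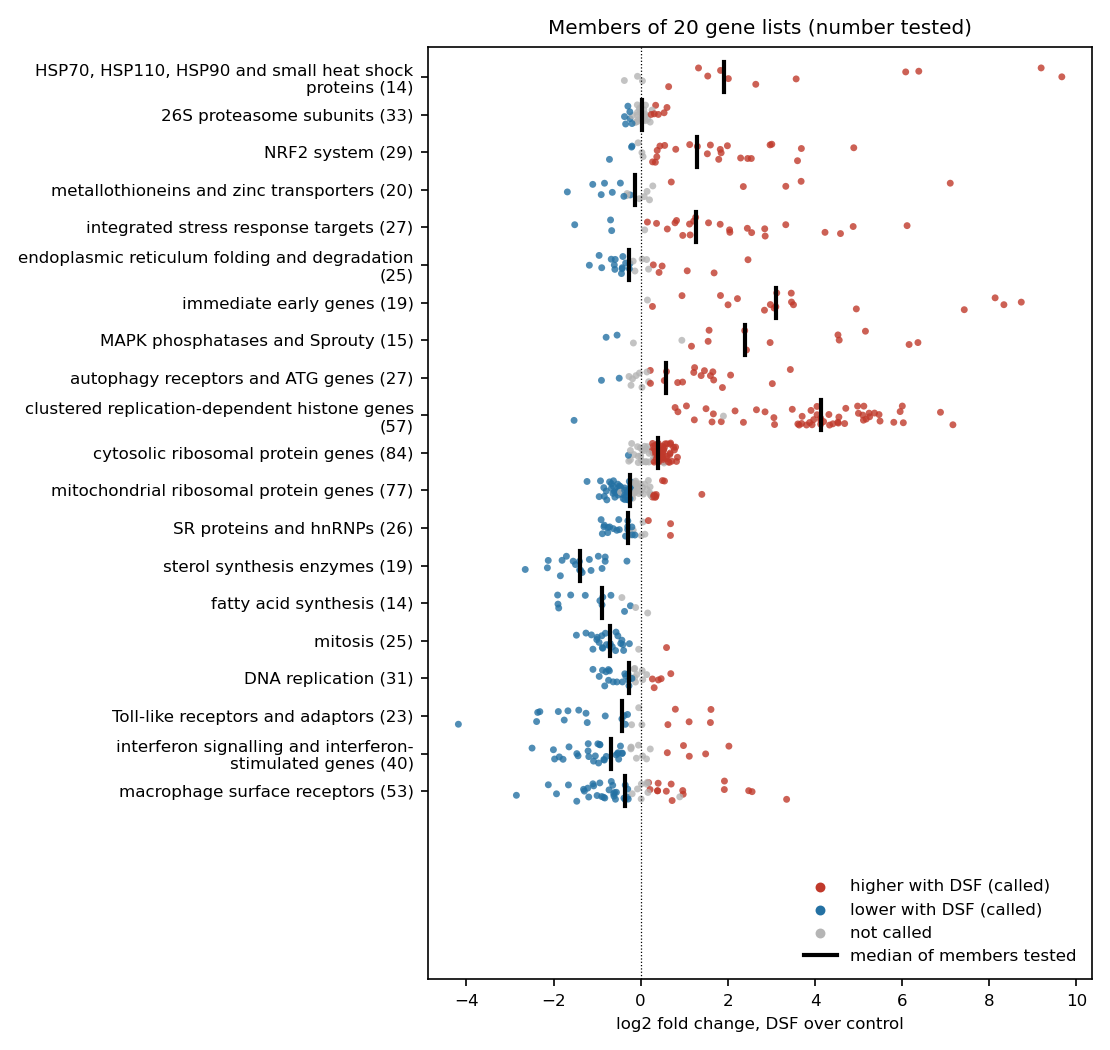
Log2 fold change, DSF over control, of each tested member (regulators included) of 20 gene lists, coloured by call, with the number tested in brackets and the median as a line. The medians of the immediate early (3.10) and MAP kinase phosphatase (2.39) lists lie far to the right, and that of the sterol synthesis enzymes (-1.40) lies to the left of 0. Many of the histone points are of genes tested only because they had counts with DSF.

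Histone genes gained reads, as did genes that were silent in control cells. The clustered, replication-dependent histone genes encode mRNAs that normally lack a poly(A) tail, and the libraries were made from poly(A) RNA. Of 71 names that matched the histone pattern, 57 were tested, and 55 of these rose and 1 fell; near-identical copies may share reads. The filter kept many of them only because they had counts with DSF, so this count is set in part by the filter, and the values below are of the best-read ones. Hist1h4i had 196 and 227 CPM in DSF cells, against 27.8 and 23.1 CPM in control cells (log2 fold change 3.06 ± 0.13 (SE), adjusted p = 1.3e-10), and Hist1h2bc had 149 and 160.5 CPM in DSF cells, against 19.7 and 17.2 CPM in control cells (log2 fold change 3.07 ± 0.10 (SE), adjusted p = 1.1e-11). Hist1h1c, a clustered linker histone gene, had 51.3 and 54.9 CPM with DSF and 25.7 and 25.6 CPM in control (1.05). The member that fell was H1f0, a linker histone gene outside the clusters (14.8 and 11.4 CPM with DSF and 39.7 and 35.9 CPM in control; -1.53). Of the protein-coding genes that rose at least 2-fold, 5.5% (112 of 2035) have a single annotated exon, as histone genes do, against 3.5% of those that fell at least 2-fold and 2.67% of all tested. Since 53 genes of the histone list rose at least 2-fold, the first share in part counts them again.

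In total, 286 genes had 0 counts in both control libraries and at least 10 in both DSF libraries, and 1 gene, Bex6, showed the reverse. Of the 286, 201 are protein coding, 60 are long noncoding and 23 are pseudogenes, by annotation. Among those with the most counts were the homeobox gene Uncx (160 and 202 counts with DSF against 0 and 0 in control), the calcium channel gene Cacna1h (167 and 178 counts with DSF against 0 and 0 in control), the protease gene Mmp28 (150 and 193 counts with DSF against 0 and 0 in control), Usp17le (117 and 207 counts with DSF against 0 and 0 in control), which has close relatives that may share reads, and Fam83g (113 and 135 counts with DSF against 0 and 0 in control). Taking 3 counts over both control libraries together as the floor, Fam83g was at least 84.3-fold higher with DSF. Most had no reads with LPS either: 171 of the 286 had 0 counts in both LPS libraries and 2 had at least 10 in both. All 286 had at least 1 count in both libraries of cells given DSF and LPS, and 209 had at least 10. Of 263 with an annotated gene upstream on the same strand, 26.6% had an upstream neighbour at 10 CPM or more in DSF cells, and of 261 with one downstream 18.8%. The same shares among genes silent in control and still under 10 counts with DSF were 11.2% and 11.8%.

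Genes of the protein synthesis machinery moved by small steps and in different directions. Of 84 cytosolic ribosomal protein genes, 55 rose, 1 fell and none changed 2-fold (median 0.40). Rpl8 had 2489.8 and 2512 CPM in DSF cells, against 1928 and 1718 CPM in control cells (log2 fold change 0.46 ± 0.07 (SE), adjusted p = 8.5e-05). Many of these genes have pseudogenes that may share reads, and 35 rose without DSF replicate 2. The one that fell, Rpl7l1 (-0.28), encodes a ribosomal protein-like factor. Mitochondrial ribosomal protein genes went down: 42 of 77 fell and 9 rose (median -0.25; 3 rising without control replicate 2), from Mrpl41 (-1.23) to Mrps6 (1.40). For comparison, 27.1% of all genes tested fell, 40.1% of those at 10 to 100 CPM in control and 50.6% of those at 100 CPM or more. Of 12 snoRNA host genes, whose mature transcripts are short-lived, 9 rose and 0 fell, led by Snhg12 (1.85) and Snhg1 (1.55). Initiation factor genes split, 12 rising and 12 falling of 30 (8 and 12 when scaled by library size alone), with Eif1 (1.14) and Eif2s2 (0.91) at the top and the scaffold genes Eif4g1 (-0.78) and Eif4g2 (-0.56) among those that fell. Genes for SR proteins and hnRNPs, which steer splicing, fell in 18 of 26 cases and rose in 3. Hnrnpl had 258 and 271 CPM with DSF and 479 and 493 CPM in control (-0.88), Srsf9 fell by 0.83, and Hnrnpc rose by 0.69.

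Tubulin genes fell where they are abundant. Tubb5 (-0.73), Tuba1b (-0.87) and Tubb4b (-0.67) fell, and the little-expressed Tubb3 (3.10) and Tubb2a (1.48) rose, in a list of 13 with 7 falls and 4 rises.

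Every tested enzyme gene of sterol synthesis fell. All 19 were called, 14 of them fell at least 2-fold, and the median was -1.40, where 27.1% of all genes tested fell. At the entry of the pathway, Hmgcs1 had 48.9 and 52.2 CPM in DSF cells, against 309.8 and 324 CPM in control cells (log2 fold change -2.65 ± 0.12 (SE), adjusted p = 2.7e-10), and Acat2, an acetoacetyl-CoA thiolase gene, had 19.5 and 21.2 CPM in DSF cells, against 90.6 and 86.3 CPM in control cells (log2 fold change -2.12 ± 0.09 (SE), adjusted p = 1.0e-10). Further along, the squalene synthase gene Fdft1 had 20.8 and 20.0 CPM in DSF cells, against 98.1 and 82.2 CPM in control cells (log2 fold change -2.14 ± 0.11 (SE), adjusted p = 5.0e-10), and the decarboxylase gene Mvd 38.9 and 37.5 CPM with DSF and 141 and 133 CPM in control (-1.84). The smallest fall was of Ebp, a sterol isomerase gene (34.9 and 36.8 CPM with DSF and 45.1 and 44 CPM in control; -0.31). Both DSF libraries lay below both control libraries in all 19, as they did in 38.0% of all genes tested. Uptake and control genes were mixed. The sterol carrier gene Stard4 fell by 1.45, and the SREBP genes Srebf2 (-0.62) and Srebf1 (-0.27) fell with Scap (-0.70) and Insig1 (-0.70). Mylip, which encodes the ubiquitin ligase IDOL, had 53.8 and 71.7 CPM in DSF cells, against 11.4 and 12.5 CPM in control cells (log2 fold change 2.39 ± 0.26 (SE), adjusted p = 2.5e-06), and the lysosomal cholesterol exporter gene Npc1 rose by 1.0.

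**Figure D4:**
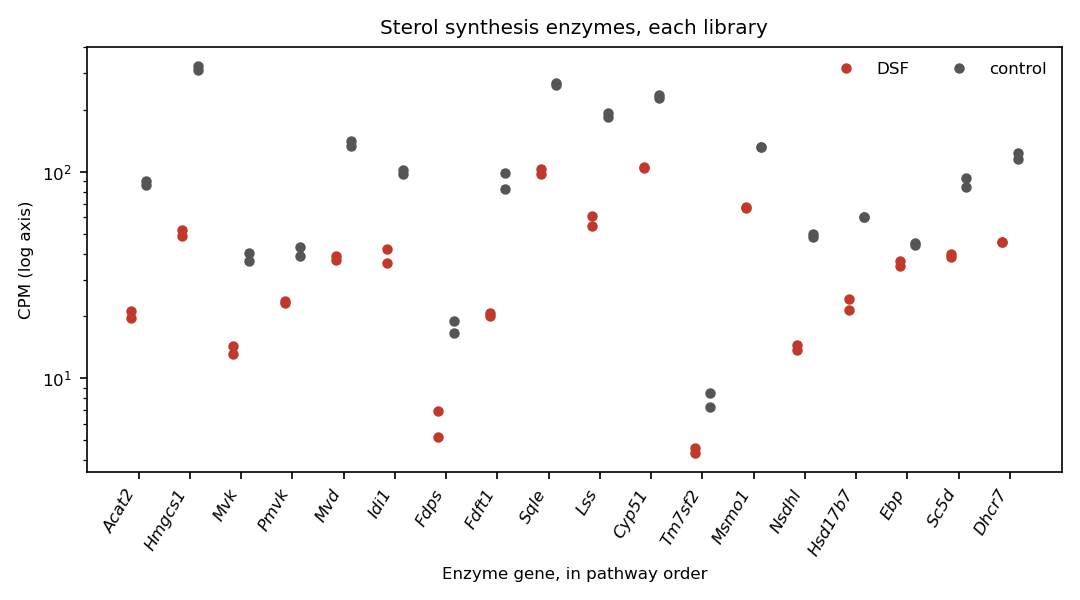
CPM (log axis) of 18 of the 19 sterol synthesis enzyme genes in pathway order, each library a point, DSF left of control. The DSF points lie below the control points for each gene drawn, from Hmgcs1 (48.9 and 52.2 against 309.8 and 324 CPM) to Ebp, where the gap is smallest.

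Fatty acid synthesis genes fell as well, 11 of 14 with 0 rising (median -0.88). Fasn, fatty acid synthase, had 633 and 650.0 CPM in DSF cells, against 1476 and 1620.3 CPM in control cells (log2 fold change -1.27 ± 0.06 (SE), adjusted p = 4.4e-10). Scd2, which encodes a desaturase, had 479 and 414 CPM in DSF cells, against 1640.3 and 1706 CPM in control cells (log2 fold change -1.91 ± 0.07 (SE), adjusted p = 2.7e-11), and its relative Scd1 fell by 1.61. Elovl6 (-1.90), Acly (-0.94), Acaca (-0.87) and Fads2 (-0.89) fell too. Of 9 liver X receptor and cholesterol export genes, 3 rose, among them the exporter gene Abca1, at 99.3 and 105 CPM with DSF and 45.5 and 52.4 CPM in control (1.06), and the lipid transfer gene Pltp (2.11), and 2 fell (3 and 4 when scaled by library size alone).

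Cell division genes fell more often than they rose. Of 25 mitosis genes, 23 fell and 1 rose (median -0.71). Plk1, a kinase that drives mitotic entry, had 79.9 and 65.3 CPM in DSF cells, against 204 and 199.9 CPM in control cells (log2 fold change -1.47 ± 0.12 (SE), adjusted p = 1.0e-07), and Bub1b (-1.26) and the kinesin motor gene Kif11 (-1.13) fell. Cenpf, a kinetochore gene, was the one that rose (167 and 155 CPM with DSF and 104 and 109 CPM in control; 0.59). Mki67, the proliferation marker, was not called, at 733 and 679 CPM with DSF and 686 and 771 CPM in control. Of 31 DNA replication genes, 17 fell and 5 rose (22 and 3 when scaled by library size alone, and 2 rising without control replicate 1). Over all genes tested 27.1% fell and 31.0% rose, and of those at 100 CPM or more in control 50.6% fell and 24.6% rose. The falls among replication genes are thus near the share of well-expressed genes. Rrm1, a ribonucleotide reductase subunit gene, had 168 and 163 CPM with DSF and 349 and 358 CPM in control (-1.10), whereas the licensing and origin factor genes Mcm10 (0.69) and Cdt1 (0.47) rose. Of 22 genes for G1 cyclins, E2F proteins and CDK inhibitors, 12 fell and 3 rose. Ccnd1, cyclin D1, had 158 and 131 CPM in DSF cells, against 351 and 359 CPM in control cells (log2 fold change -1.30 ± 0.08 (SE), adjusted p = 9.5e-09), Ccne1 fell by 1.32, and the inhibitor genes Cdkn2b (1.75) and Cdkn1a (0.46) rose.

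Transcription factor genes of the macrophage lineage changed in both directions. Of 19 tested, 10 rose and 7 fell, where 31.0% rose and 27.1% fell over all genes tested. Maf, the gene of a large MAF factor, had 9.42 and 11.4 CPM in DSF cells, against 78 and 87.2 CPM in control cells (log2 fold change -3.00 ± 0.12 (SE), adjusted p = 5.5e-11). Id3, a dominant-negative partner of E proteins, had 23.3 and 32.3 CPM in DSF cells, against 0.931 and 1.53 CPM in control cells (log2 fold change 4.47 ± 0.30 (SE), adjusted p = 1.4e-08). Irf5, a factor of inflammatory macrophages, had 22 and 19.9 CPM with DSF and 83.9 and 81.9 CPM in control (-1.98), and Fli1 (-1.35), Ikzf1 (-0.90) and Spi1, the gene of PU.1 (-0.44), fell. Ets2 (1.47) and Runx1 (1.37) rose.

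Surface receptor genes fell more often than they rose, 30 against 15 of 53 tested (median -0.35), with 9 rising without DSF replicate 2. Csf1r, the receptor that keeps macrophages alive, had 443 and 478 CPM in DSF cells, against 804 and 826 CPM in control cells (log2 fold change -0.82 ± 0.08 (SE), adjusted p = 3.6e-07). The adhesion gene Itga4 had 41.1 and 40.5 CPM in DSF cells, against 163 and 191 CPM in control cells (log2 fold change -2.12 ± 0.10 (SE), adjusted p = 5.4e-10), and Sirpa, the receptor that reads CD47 on other cells, had 181 and 162 CPM in DSF cells, against 532 and 550.2 CPM in control cells (log2 fold change -1.66 ± 0.07 (SE), adjusted p = 1.2e-10). Fc receptor genes fell in 4 of 5 cases, with Fcgr1 at 12 and 10.6 CPM with DSF and 41.9 and 44.5 CPM in control (-1.93). Cd68 (0.39), the lectin gene Clec4d (0.72) and the receptor chain gene Csf2ra (0.98) rose, and Adgre1, which encodes F4/80, was not called (80.4 and 90.6 CPM with DSF and 82.7 and 86.8 CPM in control). Among 22 purinergic and lipid receptor genes, 10 fell and 8 rose. P2ry6, a UDP receptor gene, had 8.97 and 9.97 CPM with DSF and 39 and 42.7 CPM in control (-2.11), and the complement receptor genes parted, C5ar1 at 81.5 and 78.6 CPM with DSF and 158 and 163 CPM in control (-1.0) and C3ar1 at 174 and 182 CPM with DSF and 98.6 and 108 CPM in control (0.79).

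Toll-like receptor genes fell in cells that had not met LPS. Of 23 receptor and adaptor genes, 15 fell, 10 of them at least 2-fold, and 5 rose. Tlr2, which senses bacterial lipopeptides, had 19.4 and 17.5 CPM in DSF cells, against 93.7 and 96.2 CPM in control cells (log2 fold change -2.36 ± 0.11 (SE), adjusted p = 4.4e-10), and Tlr7, which senses single-stranded RNA, had 11.9 and 10.4 CPM in DSF cells, against 53.1 and 63.8 CPM in control cells (log2 fold change -2.39 ± 0.12 (SE), adjusted p = 8.1e-10). Cd180 (-1.75), Tlr13 (-1.67) and the shared adaptor gene Myd88 (42.7 and 44.2 CPM with DSF and 105 and 102 CPM in control; -1.25) fell. The LPS receptor complex went the other way in part. Cd14, the LPS-binding coreceptor, had 131 and 117 CPM in DSF cells, against 40.8 and 40.5 CPM in control cells (log2 fold change 1.61 ± 0.10 (SE), adjusted p = 7.5e-09), and Ly96, which encodes MD-2, had 8.06 and 8.11 CPM in DSF cells, against 2.95 and 2.40 CPM in control cells (log2 fold change 1.60 ± 0.21 (SE), adjusted p = 1.3e-05). Tlr4 itself had 33.5 and 31.1 CPM in DSF cells, against 38.3 and 41.2 CPM in control cells (log2 fold change -0.30, adjusted p = 0.03), a call that was lost without DSF replicate 2 (-0.28, adjusted p = 0.11), without control replicate 1 (-0.36, adjusted p = 0.053), without control replicate 2 (-0.26, adjusted p = 0.16) and with DESeq2 (-0.29, adjusted p = 0.061). Of the adaptors, Ticam1 (1.11) and Traf6 (0.80) rose.

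Downstream of these receptors, 10 of 20 NF-kB genes fell and 5 rose. Nfkbia, the inhibitor gene that NF-kB itself switches on, had 30.9 and 34.9 CPM with DSF and 52.6 and 51.7 CPM in control (-0.67), and Tnip3 fell by 2.10, while Nfkbiz (1.90), Nfkbib (1.31) and Rela (0.91) rose. Interferon signalling and interferon-stimulated genes mostly fell: 27 of 40 tested, with 5 rising and a median of -0.68. Over all genes tested, 27.1% fell and 31.0% rose. Parp14 had 15 and 15.3 CPM with DSF and 57.5 and 63.9 CPM in control (-2.0), Ifi203 11.6 and 9.92 CPM with DSF and 54.7 and 66.5 CPM in control (-2.49) and Ddx58, which encodes the RNA sensor RIG-I, 24.9 and 24.9 CPM with DSF and 66.4 and 68.5 CPM in control (-1.44). The receptor gene Ifnar1 (-1.08) and Irf2 (-1.97) fell, and Mx2 (2.02), Isg20 (1.49) and Rsad2 (0.98) rose.

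Cytokine and growth factor genes rose more often than they fell without LPS. Of 25 tested, 13 rose and 3 fell (13 and 5 when scaled by library size alone), several of them at few reads. Csf1, the macrophage growth factor, had 185 and 148 CPM in DSF cells, against 25.5 and 27.2 CPM in control cells (log2 fold change 2.66 ± 0.15 (SE), adjusted p = 2.5e-09), Hbegf, an EGF receptor ligand, had 47.7 and 59.5 CPM in DSF cells, against 5.23 and 4.58 CPM in control cells (log2 fold change 3.45 ± 0.19 (SE), adjusted p = 1.6e-09), and Osm, oncostatin M, had 48.4 and 52.2 CPM with DSF and 6.62 and 7.37 CPM in control (2.84). Vegfa (1.86) and the interleukin-1 receptor antagonist gene Il1rn (1.34) rose, and Pdgfb (-0.87) and Il15 (-1.39) fell. Of 13 chemokine genes, 5 rose and 2 fell, with 3 rising without DSF replicate 1. Cxcl2, a neutrophil attractant, had 41.1 and 46.3 CPM with DSF and 1.97 and 2.53 CPM in control (4.26), and Ccl9 had 92.2 and 90.0 CPM with DSF and 193 and 189 CPM in control (-1.07). Among 16 inflammasome and pyroptosis genes, 4 rose, including the sensor gene Nlrp3 (80.7 and 74.6 CPM with DSF and 49.2 and 47.9 CPM in control; 0.68), and 8 fell, including Casp1 (-0.46), Nlrc4 (-0.73) and Gsdmd, the gasdermin D gene (36 and 37.5 CPM with DSF and 49.3 and 49.8 CPM in control; -0.43). For antigen presentation, 7 of 19 genes rose and 4 fell, shares near those over all genes tested (31.0% and 27.1%), with Cd74 at 591 and 624 CPM with DSF and 289.9 and 283 CPM in control (1.08) and the peptide transporter gene Tap1 at 21.4 and 22.4 CPM with DSF and 38.1 and 37.6 CPM in control (-0.79).

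Energy genes moved in both directions. Of 30 glycolysis and HIF genes, 11 rose and 12 fell (8 and 15 when scaled by library size alone, and 7 rising without control replicate 2 or without DSF replicate 2), where 31.0% rose and 27.1% fell over all genes tested. Slc2a1, the glucose transporter GLUT1, had 666 and 706 CPM in DSF cells, against 195 and 177 CPM in control cells (log2 fold change 1.88 ± 0.07 (SE), adjusted p = 1.8e-11), and Pfkfb3, which makes an activator of glycolysis, had 169.6 and 167 CPM with DSF and 54.9 and 55.1 CPM in control (1.61). Pfkl, the phosphofructokinase gene (136 and 136 CPM with DSF and 312 and 292 CPM in control; -1.15), Hk2 (-1.0), Pdk1 (-0.86) and Hif1a (-0.74) fell. Of 30 nuclear genes of the respiratory chain, 3 rose and 7 fell, none 2-fold, or 3 and 12 when scaled by library size alone.

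The same drug was also given before LPS, in libraries that the comparison above does not share. Across the 16304 genes, the log2 fold change of DSF over control correlated with that of DSF and LPS over LPS at Pearson's r = 0.844, a description across genes that are not independent. Genes that passed the filter on low counts only through the groups given DSF tend to be high in both contrasts and enter this r. Of the 9467 genes called without LPS, 7523 (79.5%) were called in the same direction with LPS, and 342 in the opposite direction. Over all 16304 genes, 5497 were called higher and 5156 lower with DSF and LPS than with LPS. The interaction, which tests whether the effect of DSF differed with LPS, was called for 3217 genes, 19.7% of those tested (2072 without control replicate 1), and for 2240 of the 9467 genes called without LPS (23.7%). By list, it was called for 34 of 40 interferon signalling and interferon-stimulated genes, 17 of 25 cytokine genes and 11 of 13 chemokine genes. It was called for 2 of 14 HSP genes, 3 of 57 histone genes and 0 of 84 cytosolic ribosomal protein genes.

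The largest interactions were sought among genes also called in DSF against control that reached 10 CPM in at least 1 group. A change with DSF alone was thus a condition of the choice, and 977 genes with an interaction call but no such change were not considered. Of the genes considered, the 6 with the largest interactions below 0 rose with DSF alone. They were lower with DSF and LPS than with LPS. Socs3, which limits cytokine signalling, had 17.7 and 21.6 CPM in DSF cells, against 3.98 and 4.62 CPM in control cells, a rise; it had 42.4 and 27.7 CPM with DSF and LPS, against 264 and 242 CPM with LPS (interaction -5.03 ± 0.25 (SE), adjusted p = 3.7e-09). Lif had 3.58 and 3.87 CPM with DSF and 0.207 and 0.0436 CPM in control, and 17.2 and 13.8 CPM with DSF and LPS, against 36.3 and 41.3 CPM with LPS (interaction -6.23). Mmp13, a collagenase gene, had 2.99 and 4.23 CPM with DSF and 0.362 and 0.479 CPM in control, and 15.8 and 17.6 CPM with DSF and LPS, against 83.8 and 87.8 CPM with LPS (interaction -5.41). DSF was higher than control but DSF with LPS was lower than LPS in each of these. Il1a (-6.97), Il27 (-6.20) and Cd69 (-5.88) had interactions of the same sign from few counts without LPS. Without LPS, Il1a had 20 and 45 counts with DSF against 0 and 12 in control, and its rise was not called without DSF replicate 2 (1.63, adjusted p = 0.058). The rise of Cd69 (25 and 53 counts with DSF against 17 and 16 in control) was not called without DSF replicate 2 (0.50, adjusted p = 0.48), control replicate 1 (1.42, adjusted p = 0.075) or control replicate 2 (1.09, adjusted p = 0.17). Cd14 had 150.3 and 189 CPM with DSF and LPS, against 324 and 306 CPM with LPS, an interaction of -2.50 ± 0.14 (SE), adjusted p = 1.3e-08. In the other direction, Slc26a11, an anion transporter gene, had 69.5 and 70.4 CPM with DSF and 26.8 and 26.9 CPM in control, and 81.4 and 82.2 CPM with DSF and LPS, against 2.60 and 2.96 CPM with LPS (interaction 3.49 ± 0.15 (SE), adjusted p = 9.3e-10). Adm, adrenomedullin (3.34), and Wwc1, a Hippo pathway scaffold gene (2.69), rose more with LPS than without, and Cytip (3.02), Zfp395 (2.95) and Usp2 (2.76) fell with DSF alone and stood at few CPM in both groups given LPS. Zfp395 turned, as it was higher with DSF and LPS (5.70 and 4.86 CPM with DSF and LPS, against 2.26 and 2.77 CPM with LPS; log2 fold change 1.07, adjusted p = 2.2e-04); Cytip and Usp2 were not called there.

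**Figure D5:**
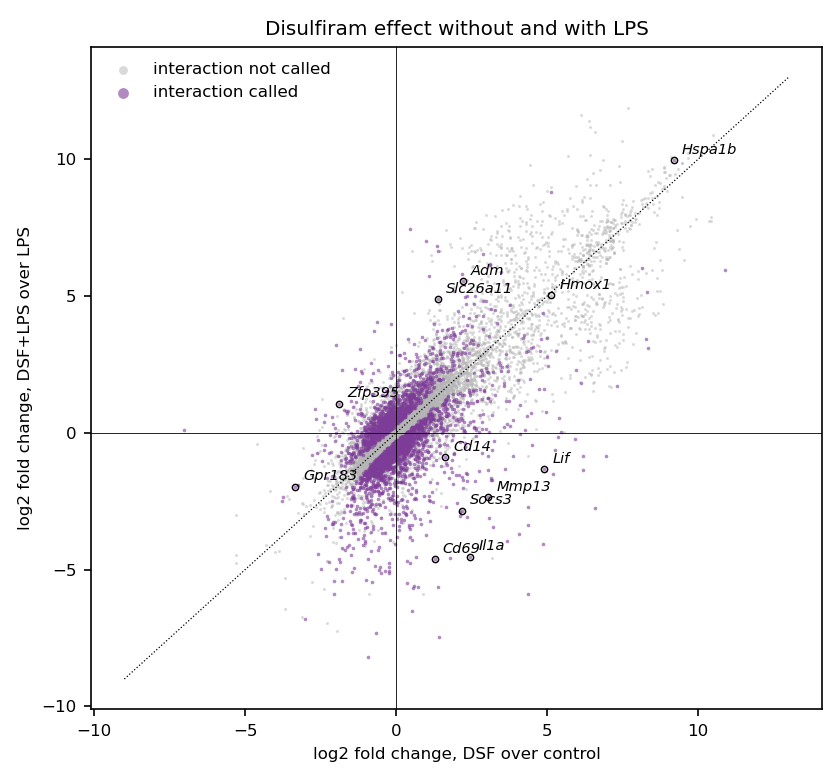
Log2 fold change of DSF over control (horizontal) against that of DSF with LPS over LPS (vertical) for the 16304 genes tested, with the dotted line marking equal effects and colour marking genes whose interaction was called. Most points follow the line (r = 0.844), and Lif, Mmp13, Socs3, Cd69 and Il1a lie below the horizontal axis at right.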

How the data were processed

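Messenger RNA of 8 iBMDM libraries, 2 in each of 4 groups, was sequenced from poly(A) RNA, and the authors deposited a table of whole-number counts per gene. The submitters' processing notes name the build GRCm39, and the sources used here do not name the aligner, the counter or the strand setting, so overlapping and antisense genes cannot be told apart. The table holds 55414 identifiers, 52081 of them with a symbol.

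Counts were tested with edgeR 4.0.16 (R 4.3.3): TMM scaling, filterByExpr defaults (at least 10 counts, 15 in total), a quasi-likelihood fit of all 8 libraries with a mean per group, two-sided tests and Benjamini-Hochberg adjustment over 16304 genes. The depth was 17822041 to 21694922 counts in the 4 libraries compared. Per-gene values are CPM on TMM-scaled library sizes. Standard errors are the size of the log2 fold change over the square root of F. Bounds against 0 use 3 counts over both control libraries and, like all counts, cover counting error only. The code was tested on simulated data.

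Groups came from the labels' treatment and replicate fields. Named genes were the 12 largest rises and falls, the 10 largest gains and losses in CPM, up to 5 called members of each list in each direction with regulators and exceptions, the 6 genes most read at 0 control counts, and the 6 largest interactions each way, plus Tlr4, Ly96 and Cd14; Bex6 and the zinc finger and ribosomal examples were picked after their values were seen, and a few genes that these rules named are not reported here. The 12 rises and 12 falls were of called genes at 10 CPM or more in the higher group that did not overlap between groups. The interactions were of genes also called in DSF against control, at 10 CPM or more in the highest group. Predicted genes were left out of both choices. The 61 lists held 1727 symbols, of which 1566 were tested. The members and lists were chosen with earlier results of these data known. Alternatives were library size alone, RLE size factors, DESeq2 1.42.0, no filter, at least 1 CPM in 2 libraries, the 4 libraries without LPS, each library left out, and a replicate block.

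Annotation came from GENCODE M21 on GRCm38, and its coordinates set the order of neighbours on each strand. Promoter windows came from RefSeq on GRCm38.p6, which held 10474 of the tested symbols.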

Additional observations from a re-analysis of the deposited data

Results flagged for a closer look

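The effect of DSF differed between cells without and with LPS, by the interaction test in edgeR, for 3217 genes. Among the genes named in the text, 135 of 309 passed that test. The genes below were chosen among those also called in DSF against control that reached 10 CPM in at least 1 group. The largest differences below 0 in this set were of Il1a (-6.97), Lif (-6.23), Il27 (-6.20), Cd69 (-5.88), Mmp13 (-5.41) and Socs3 (-5.03), all on the log2 scale. In these the effect of DSF with LPS lay under its effect without LPS. Cd14, included as an LPS receptor gene and not by the size of its difference, was at -2.50. The largest above 0 in the same set were of Slc26a11 (3.49), Adm (3.34), Cytip (3.02), Zfp395 (2.95), Usp2 (2.76) and Wwc1 (2.69). The interaction of each of these 13 genes was called in the main fit, and its call in the alternative fits is not reported here. With 2 libraries per group, no library could be tested for standing apart from its group.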

How the results depend on the processing

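All counts of genes called in DSF against control stayed within 1.5 times the reported ones in the 11 alternative fits. The balance of rises and falls did turn with the scaling: 5049 rose and 4418 fell in the main fit, and 4423 rose and 5269 fell with library size alone. Genes that rose numbered 4423 to 5310 with another scaling, tool, filter or set of libraries and 4130 to 4461 with 1 library left out, and genes that fell 4005 to 5269 and 3704 to 4152. With the replicate number as a replicate block, 5036 rose and 4385 fell, and of the named genes only Slc30a4 changed its call (edgeR, adjusted p = 0.0505). The deviations of DSF and control replicates 1 from their group means correlated at 0.037. Over all pairs of groups such correlations ran from -0.12 to 0.053. They show no strong shared shift, but cannot tell whether libraries of the same number share a culture or day. The interaction count lay between 2072 (without control replicate 1) and 2826 with 1 library left out, and was not run on 4 libraries, where it has no value. The 286 genes switched on and 1 switched off became 639 and 5 with at least 5 counts, 113 and 0 with at least 20 counts, and 377 to 462 and 1 to 4 with 1 library left out. By construction, more reads are asked for with at least 20 counts, and fewer zeros or reads in the other settings. Of the 302 named genes that were called, 297 kept the call and direction in every alternative; the exceptions, Tlr4, Nfe2l2, Slc30a4, Il1a and Cd69, are given with their values above, and Cd69 was also not called with library size alone (adjusted p = 0.052) or DESeq2 (0.081). Hspa5 and Slc31a1, not called, fell in the settings named above. Genes that were not called changed sign near 0: Adgre1 to -0.092 (library size alone), -0.025 (no filter) and between -0.10 and 0.071 with 1 library left out, Hspa4 to -0.062 (library size alone) and between -0.0058 and 0.041, Mki67 between -0.14 and 0.028, Vcp between -0.16 and 0.052 with 1 library left out, and Nploc4 to -0.0064 (library size alone). Depth limits genes of a few counts, and 2 libraries a group limit how far spread between cultures can be known.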

Other observations

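Zinc finger genes named Zfp, a family of mostly repressive DNA-binding proteins, changed in both directions. Of 310 tested, 110 rose and 36 fell, with a median log2 fold change of 0.22 (97, 55 and 0.12 when scaled by library size alone), against 31.0% rising and 27.1% falling over all genes. Zfp959 had 19.2 and 19.4 CPM in DSF cells, against 4.91 and 4.01 CPM in control cells (log2 fold change 2.12 ± 0.15 (SE), adjusted p = 2.4e-08), and Zfp747 had 38.8 and 44.5 CPM in DSF cells, against 11.4 and 13.7 CPM in control cells (log2 fold change 1.72 ± 0.12 (SE), adjusted p = 1.6e-08). Zfp710 had 32.8 and 25.8 CPM in DSF cells, against 117 and 128 CPM in control cells (log2 fold change -2.06 ± 0.11 (SE), adjusted p = 9.5e-10). Of 13 protein genes encoded by mitochondrial DNA, 1 rose and 5 fell (2 falling without control replicate 1), none 2-fold. In the MYC and MXD network 6 of 12 genes rose and 3 fell (5 and 4 when scaled by library size alone), with the MYC antagonist gene Mxd1 at 38.5 and 43.6 CPM with DSF and 9.05 and 8.85 CPM in control (2.20) and Mlxip at 46.6 and 39 CPM with DSF and 89.6 and 92.5 CPM in control (-1.09).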
